A study of Mus musculus with 15 samples.

Results

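The 10 genes followed here belong to the myostatin and TGF-beta pathway and were measured in mouse quadriceps muscle: Mstn, Gdf11, Fst, Fstl1, Fstl3, Acvr2b, Tgfb1, Tgfb2, Tgfb3 and Tgfbr2. They were chosen by name, and all 10 were found among the 39179 genes of the count files. RNA was sequenced from 15 C57BL/6 mice in 4 groups. At 3 mo there were 4 wild-type (WT) mice, numbered 1 to 4, and 4 V338Y mice, numbered 1 to 4. At 19 mo there were 3 WT mice, numbered 2, 4 and 5, and 4 V338Y mice, numbered 2, 3, 4 and 5. The V338Y mice were homozygous for an amino acid exchange in Mrps5, a protein of the mitochondrial ribosome, in every tissue, and no further allele or treatment is given for any group. The study used these mice as a model of mitochondrial mistranslation and asked how their muscle differed from WT muscle and how both changed with age.

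Myostatin, the product of Mstn, is a ligand of the TGF-beta superfamily that muscle fibers secrete and that limits muscle mass. Such ligands are made as precursors, are released from latent complexes, and bind a type II receptor, which then activates a type I receptor. Myostatin and activins signal through the type II receptors of the activin family, the TGF-beta ligands through Tgfbr2, and both end in phosphorylated Smad2 and Smad3, while follistatins trap ligand before it reaches a receptor.

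Between 8250653 and 18968132 counts per mouse were assigned to genes. Mrps5 itself read 21.1 to 27.3 CPM (TMM CPM, counts scaled to a common library size by edgeR's TMM method) at 3 mo and 14.8 to 19.3 CPM at 19 mo, and a gene count cannot show the exchanged amino acid. The 8 libraries of 3 mo mice held 166 to 201 CPM of the Y-linked gene Ddx3y and at most 0.586 CPM of Xist, although the methods describe the 3 mo mice as female. The 7 libraries of 19 mo mice held at most 0.0813 CPM of Ddx3y and 502 to 626 CPM of Xist. Age and sex therefore cannot be told apart in any comparison of 3 mo with 19 mo mice below. Muscle fiber genes were abundant in every library. Neutrophil genes stood at 547 CPM, summed over 5 genes, in V338Y mouse 5 at 19 mo and at 24.2 CPM in V338Y mouse 3, and at no more than 4.38 CPM in the other 13 mice.

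Mstn and Gdf11 encode closely related ligands, which raises the question of whether reads could be assigned to the wrong gene. The longest identical stretch between any pair of the 10 members was 38 bases, between Tgfb1 and Tgfbr2, and that between Mstn and Gdf11 was 12 bases, both shorter than a read.

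The promoters of 3 members are shown because Mstn, Tgfb1 and Tgfb2 had the largest called differences with age among the ligands of the 10 members. The sequences are those of RefSeq on GRCm38.p6, end 1 base before the gene's start and read 5′ to 3′ on the gene's strand. They lie at chr1:53061390-53061639 on the plus strand for Mstn, at chr7:25686752-25687001 on the plus strand for Tgfb1, and at chr1:186705990-186706239 on the minus strand for Tgfb2. Capitals mark CANNTG, the E-box letters read by myogenic factors among others, and CAGAC, letters that Smad proteins read, on either strand.
Mstn: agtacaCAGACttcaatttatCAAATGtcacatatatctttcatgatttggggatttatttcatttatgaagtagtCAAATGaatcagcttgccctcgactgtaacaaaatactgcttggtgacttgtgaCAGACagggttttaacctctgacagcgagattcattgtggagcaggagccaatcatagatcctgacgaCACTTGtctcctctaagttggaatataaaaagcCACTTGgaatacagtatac
Tgfb1: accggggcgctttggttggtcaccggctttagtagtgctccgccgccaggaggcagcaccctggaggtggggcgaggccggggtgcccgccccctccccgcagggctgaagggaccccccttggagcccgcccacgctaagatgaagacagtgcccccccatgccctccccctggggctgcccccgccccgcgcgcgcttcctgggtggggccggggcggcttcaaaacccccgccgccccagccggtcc
Tgfb2: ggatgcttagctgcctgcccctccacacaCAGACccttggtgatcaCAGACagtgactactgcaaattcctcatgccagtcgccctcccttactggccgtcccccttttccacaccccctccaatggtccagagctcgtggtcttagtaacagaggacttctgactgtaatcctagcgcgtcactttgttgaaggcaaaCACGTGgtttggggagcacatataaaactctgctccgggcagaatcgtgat
The Mstn window held 4 matches to CANNTG and 2 to CAGAC, the Tgfb2 window 1 and 2, and the Tgfb1 window 0 and 0. No match overlapped another. Of 32851 promoters of this length, 66.2% held CANNTG and 42.2% held CAGAC. GC content was 38.4% for Mstn, 53.6% for Tgfb2 and 75.2% for Tgfb1. Of the 10 members 8 were in the promoter table. Such matches describe letters only and were not measured as binding.

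Of the 10 members, 6 were higher at 19 mo than at 3 mo in WT mice, and 4 were higher and 1 lower in V338Y mice. Fst, Tgfb1, Tgfb2 and Tgfbr2 were called higher in both genotypes, and Mstn was called lower in V338Y mice. These counts use edgeR's quasi-likelihood test at a Benjamini-Hochberg adjusted p under 0.05. They are read beside the share of all genes tested, which was called for 36.2% in WT (18.3% higher and 17.8% lower) and for 46.9% in V338Y mice (24.4% higher and 22.5% lower). Of the genes tested in both genotypes, 14.4% were called higher in both. The median log2 fold change of the members was 0.62 in WT and 0.64 in V338Y mice, beside 0.02 and 0.07 over all genes. The values of 3 mo and 19 mo mice did not overlap for 6 members in WT, all higher, beside 43.2% of all genes (20.8% higher), and for 2 higher and 1 lower in V338Y mice, beside 42.1% of all genes (19.5% higher and 22.6% lower). Fewer cells of a type and less RNA per cell cannot be told apart in these whole-muscle samples.

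**Figure D1:**
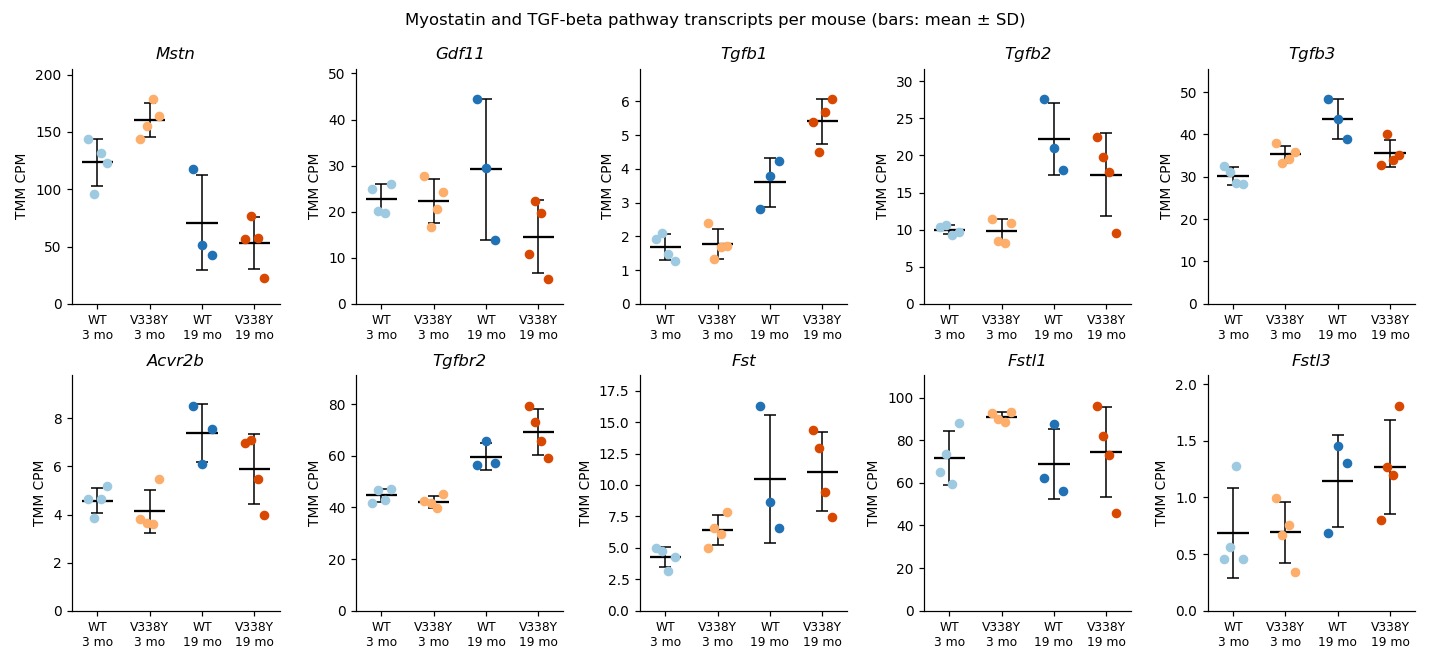
Level of each of the 10 members in TMM-scaled CPM (linear vertical axes starting at 0) for every mouse in the 4 groups, with points for mice and bars for the mean ± SD. Tgfb1 is higher in all 7 mice of 19 mo than in all 8 of 3 mo, and Mstn in all 4 V338Y mice of 19 mo lies below all V338Y mice of 3 mo.

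Mstn (ENSMUSG00000026100, chr1:53061640-53068079) read 144, 95.8, 132 and 123 CPM in WT mice 1 to 4 at 3 mo, and 144, 155, 179 and 164 CPM in V338Y mice 1 to 4. The 19 mo levels were 118, 51.7 and 42.3 CPM in WT mice 2, 4 and 5. It read 56.1, 76.8, 57.6 and 22.6 CPM in V338Y mice 2, 3, 4 and 5. All 4 V338Y mice of 19 mo were below all V338Y mice of 3 mo, whereas WT mouse 2 of 19 mo lay within the WT range of 3 mo and mice 4 and 5 lay below it. In V338Y mice Mstn fell by 1.56 ± 0.30 on the log2 scale (SE), or 2.96-fold, with an edgeR adjusted p of 0.00241, and without mouse 5 of 19 mo it fell by 1.30 with an edgeR adjusted p of 0.000127. In WT mice the log2 fold change was -0.79 ± 0.31 and the edgeR adjusted p 0.0744, not called. Without WT mouse 2 of 19 mo it was -1.37 with an edgeR adjusted p of 0.00122, and with mouse 2 kept it was also called with no filter on low counts (-0.81, edgeR adjusted p 0.0259) and by edgeR's likelihood ratio test (-0.79, adjusted p 0.0419). The difference between the age effects of the genotypes was -0.79 ± 0.47 on the log2 scale, with an edgeR adjusted p of 0.600.

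Gdf11 (ENSMUSG00000025352, chr10:128882295-128891718), the closest relative of Mstn and a ligand of the same receptors, read 25.0, 20.1, 19.6 and 25.9 CPM in WT and 27.8, 16.7, 20.6 and 24.3 CPM in V338Y mice of 3 mo. In 19 mo mice it stood at 44.4, 29.5 and 13.8 CPM in WT mice 2, 4 and 5, and 10.8, 22.4, 19.7 and 5.29 CPM in V338Y mice 2, 3, 4 and 5. Levels spread far more at 19 mo than at 3 mo, with WT mouse 2 highest and V338Y mouse 5 lowest of all 15 mice. The log2 fold change with age was 0.39 ± 0.31 in WT and -0.60 ± 0.37 in V338Y mice, with edgeR adjusted p of 0.339 and 0.210. Gdf11 in WT mice was called higher, at 0.72 with an edgeR adjusted p of 0.0156, without mouse 5, and stood at -0.03 without mouse 2.

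The mice at the extremes of both ligands at 19 mo were also those at the extremes of the muscle fiber genes. The sum of 6 such genes (Acta1, Ckm, Myh4, Myh1, Myh2, Tnnt3) was 126579 CPM in WT mouse 2, 96824 in mouse 4 and 81645 in mouse 5. It was 75272, 109826, 84360 and 66387 CPM in V338Y mice 2, 3, 4 and 5, and 117839 to 139017 CPM in the 8 mice of 3 mo. The mouse with the highest sum at 19 mo had the highest Mstn and Gdf11, and the mouse with the lowest sum had the lowest of both. This was not particular to these ligands. At 19 mo WT mouse 2 was also highest and V338Y mouse 5 lowest for Acvr2b (8.51 and 4.0 CPM) and Tgfb2 (27.6 and 9.48 CPM). For Tgfb1 (2.79 and 6.06 CPM) and Fstl3 (0.683 and 1.81 CPM) WT mouse 2 was lowest and V338Y mouse 5 highest. Of the 6 fiber genes 2 were called lower with age in WT (Ckm and Tnnt3), beside 17.8% of all genes. In V338Y mice 3 of these fiber genes were (Acta1, Ckm and Tnnt3), beside 22.5% of all genes. The part of the fiber genes in the Mstn and Gdf11 differences was not tested.

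**Figure D2:**
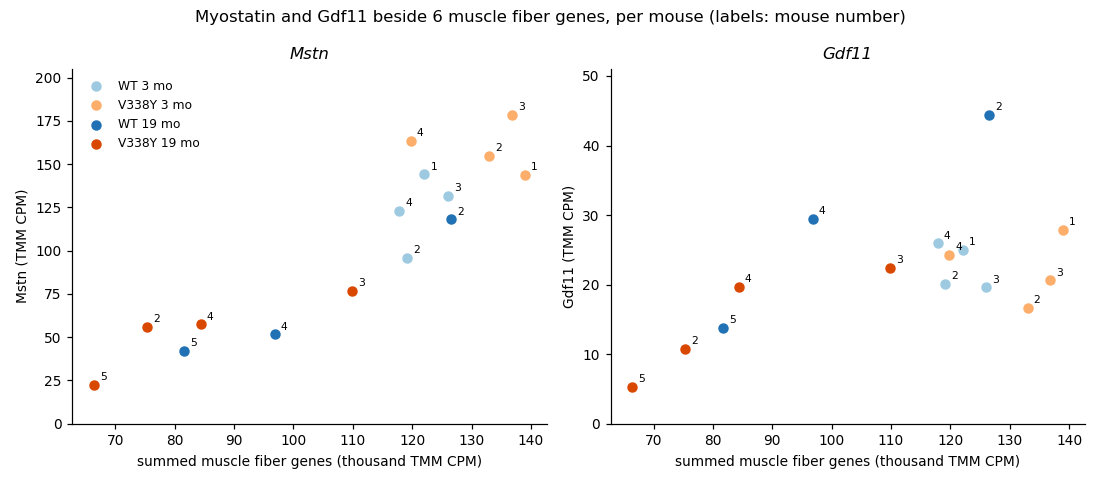
Mstn (left) and Gdf11 (right) in TMM-scaled CPM against the summed CPM of 6 muscle fiber genes, with 1 point per mouse, colored by group and labelled with the mouse number. At 19 mo WT mouse 2, with 126579 CPM of fiber genes, is highest for both, and V338Y mouse 5, with 66387 CPM, is lowest.

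The genes whose profile over the 15 mice was most like that of Mstn were Pvalb, a calcium-binding protein of fast fibers, Mrln, a small regulator of the calcium pump of the sarcoplasmic reticulum, and Tmem233. Likeness was the root mean square difference between centred log2 CPM profiles, which was 0.22, 0.24 and 0.25 for these genes, against 0.84 for the deviations of Mstn itself, among 12821 genes compared. Pvalb averaged 9149 CPM in WT and 10480 CPM in V338Y mice of 3 mo, and 4961 and 3667 CPM in those of 19 mo. The 4 group means stood in the same order for Mstn, at 124, 160, 70.7 and 53.3 CPM.

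Tgfb1 (ENSMUSG00000002603, chr7:25687002-25705077), the ligand best known from immune regulation and fibrosis, was scarce, with 14 to 94 counts per mouse. It read 1.91, 2.11, 1.48 and 1.27 CPM in WT and 2.4, 1.34, 1.68 and 1.71 CPM in V338Y mice of 3 mo. At 19 mo it read 2.79, 3.78 and 4.23 CPM in WT mice 2, 4 and 5, and 5.39, 4.48, 5.68 and 6.06 CPM in V338Y mice 2, 3, 4 and 5. No mouse of 19 mo overlapped with 3 mo in either genotype, and all V338Y mice of 19 mo were above the WT mice of 19 mo. Tgfb1 rose 2.14-fold with age in WT (log2 fold change 1.10 ± 0.25, edgeR adjusted p 0.00932) and 3.03-fold in V338Y mice (1.60 ± 0.21, edgeR adjusted p 0.000385). The difference between these effects was 0.49 ± 0.32, with an edgeR adjusted p of 0.631.

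Tgfb2 (ENSMUSG00000039239, chr1:186622792-186705989) read 10.3, 10.6, 9.27 and 9.70 CPM in WT and 11.5, 8.53, 8.21 and 10.8 CPM in V338Y mice of 3 mo. At 19 mo it read 27.6, 21.0 and 18 CPM in WT mice 2, 4 and 5, and 22.5, 19.7, 17.8 and 9.48 CPM in V338Y mice 2, 3, 4 and 5. Only V338Y mouse 5 of 19 mo fell back into the range of 3 mo. Tgfb2 rose 2.26-fold in WT (1.18 ± 0.14, edgeR adjusted p 0.000561) and 1.8-fold in V338Y mice (0.85 ± 0.25, edgeR adjusted p 0.0180). The call in V338Y mice was lost without mouse 2 of 3 mo (0.79, edgeR adjusted p 0.0511) or without mouse 3 of 3 mo (0.77, edgeR adjusted p 0.0538).

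Tgfb3 (ENSMUSG00000021253, chr12:86056745-86079041), the ligand with the most transcript of the TGF-beta trio, read 32.5, 31.2, 28.5 and 28.3 CPM in WT and 37.9, 33.3, 34.2 and 35.8 CPM in V338Y mice of 3 mo. The 19 mo levels were 48.3, 43.6 and 39.0 CPM in WT mice 2, 4 and 5, and 32.9, 40.0, 34 and 35.2 CPM in V338Y mice 2, 3, 4 and 5. The WT mice of 19 mo were all above those of 3 mo, and the V338Y ranges of the 2 ages overlapped. Tgfb3 rose 1.47-fold with age in WT (0.55 ± 0.10, edgeR adjusted p 0.00331) and stood at 0.04 ± 0.09 in V338Y mice (edgeR adjusted p 0.759). The difference between the age effects was -0.53 ± 0.13, with an unadjusted p of 0.00101 and an edgeR adjusted p of 0.364, so the 2 effects are not shown to differ.

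Per kilobase of the longest coding transcript, Tgfb3 made up 76.6% ± 0.951 of the 3 TGF-beta ligands in WT and 79.4% ± 2.03 in V338Y mice of 3 mo (SD, n = 4 each). At 19 mo its share was 68.3% ± 0.50 in WT (SD, n = 3) and 64.1% ± 4.70 in V338Y mice (SD, n = 4). The share of Tgfb1 was 6.63% ± 1.08 and 6.17% ± 1.05 at 3 mo, and 8.95% ± 2.66 and 15.3% ± 2.88 at 19 mo, in WT and V338Y mice. Its range in V338Y mice of 19 mo, 11.6 to 18.5%, lay above that of the WT mice, 6.13 to 11.4%. These shares were not tested.

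**Figure D3:**
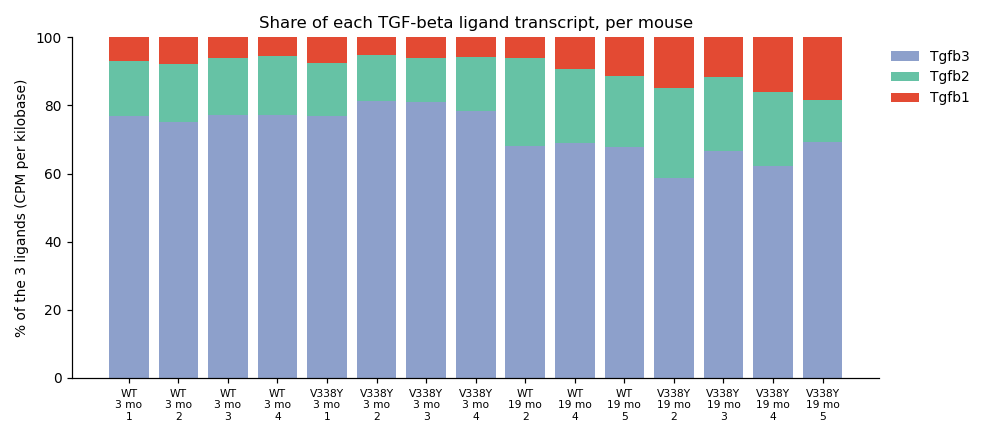
Share of Tgfb1, Tgfb2 and Tgfb3 in their summed CPM per kilobase of longest coding transcript (%, stacked to 100), with 1 bar per mouse in group and mouse order. Tgfb3 takes 58.6 to 81.1% in every V338Y mouse and Tgfb1 11.6 to 18.5% in the V338Y mice of 19 mo.

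Tgfbr2 (ENSMUSG00000032440, chr9:116084293-116175360), the type II receptor of the TGF-beta ligands, read 41.8, 46.6, 43.0 and 47.2 CPM in WT and 42.4, 41.6, 39.6 and 45.3 CPM in V338Y mice of 3 mo. In 19 mo mice it stood at 56.6, 65.6 and 57.1 CPM in WT mice 2, 4 and 5, and 79.3, 73.0, 65.6 and 59.1 CPM in V338Y mice 2, 3, 4 and 5. The ages did not overlap in either genotype. Tgfbr2 rose 1.36-fold in WT (0.44 ± 0.09, edgeR adjusted p 0.00727) and 1.67-fold in V338Y mice (0.74 ± 0.11, edgeR adjusted p 0.000734).

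Acvr2b (ENSMUSG00000061393, chr9:119402118-119434995), the type II receptor that myostatin and Gdf11 bind, read 3.87 to 5.17 CPM in WT mice of 3 mo and 8.51, 6.11 and 7.56 CPM in WT mice 2, 4 and 5 of 19 mo. In V338Y mice it read 3.81, 3.64, 3.60 and 5.48 CPM at 3 mo and 6.99, 7.10, 5.48 and 4.0 CPM in mice 2, 3, 4 and 5 of 19 mo. The WT ages did not overlap and the V338Y ages did, through mouse 4 of 3 mo alone. That mouse lay above mouse 5 of 19 mo and level with mouse 4 of 19 mo. Acvr2b rose 1.64-fold in WT (0.71 ± 0.16, edgeR adjusted p 0.00916), and its log2 fold change in V338Y mice was 0.54 ± 0.23 (edgeR adjusted p 0.0762). Without V338Y mouse 5 of 19 mo it was called in V338Y mice as well (0.71, edgeR adjusted p 0.0142), and likewise without mouse 4 of 3 mo (0.71, edgeR adjusted p 0.0373).

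Fst (ENSMUSG00000021765, chr13:114452290-114458951) encodes follistatin, which binds and neutralizes activins, myostatin and Gdf11. It read 5.01, 4.71, 3.16 and 4.26 CPM in WT and 4.98, 6.61, 6.11 and 7.88 CPM in V338Y mice of 3 mo. At 19 mo it read 16.3, 8.65 and 6.58 CPM in WT mice 2, 4 and 5, and 14.4, 12.9, 9.46 and 7.48 CPM in V338Y mice 2, 3, 4 and 5. The WT ages did not overlap, and in V338Y mice only mouse 5 of 19 mo lay below the highest mouse of 3 mo. Fst rose 2.50-fold in WT (1.32 ± 0.30, edgeR adjusted p 0.00858; without mouse 2 of 19 mo 0.86, edgeR adjusted p 0.0187) and 1.77-fold in V338Y mice (0.82 ± 0.23, edgeR adjusted p 0.0148).

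Fstl3 (ENSMUSG00000020325, chr10:79777272-79782630), another secreted inhibitor of activins and myostatin, had the fewest counts of the members, 3 to 28 per mouse. Its range was 0.453 to 1.28 CPM in WT and 0.342 to 0.997 CPM in V338Y mice of 3 mo, and 0.683 to 1.45 and 0.799 to 1.81 CPM at 19 mo. The log2 fold change with age was 0.70 ± 0.45 in WT and 0.86 ± 0.37 in V338Y mice, with edgeR adjusted p of 0.248 and 0.0766. Without V338Y mouse 2 of 19 mo Fstl3 was called (1.02, edgeR adjusted p 0.0491).

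Fstl1 (ENSMUSG00000022816, chr16:37776873-37836514) encodes a secreted glycoprotein with a follistatin-like domain. It read 59.5 to 88.2 CPM in WT and 88.4 to 93.0 CPM in V338Y mice of 3 mo. At 19 mo it read 62.4, 87.5 and 56.2 CPM in WT mice 2, 4 and 5, and 96.0, 82.1, 73.0 and 45.9 CPM in V338Y mice 2, 3, 4 and 5. The 4 V338Y mice of 3 mo lay close together and those of 19 mo far apart. The log2 fold change with age was -0.04 ± 0.18 in WT and -0.27 ± 0.19 in V338Y mice, with edgeR adjusted p of 0.893 and 0.268.

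**Figure D4:**
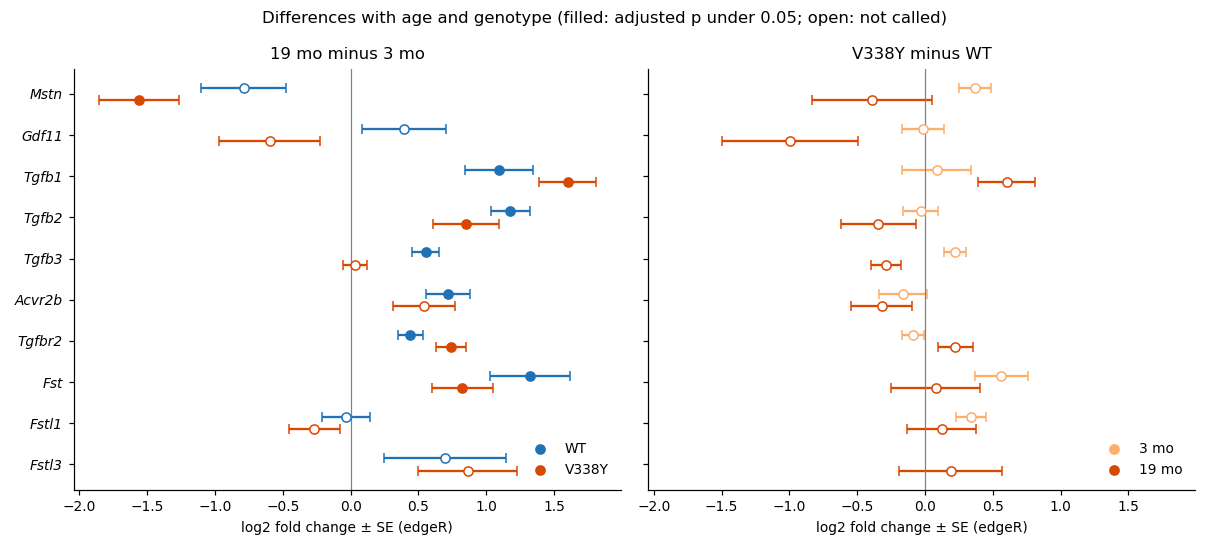
Log2 fold change ± SE of the 10 members from edgeR, 19 mo minus 3 mo in each genotype (left) and V338Y minus WT at each age (right), with filled points for an adjusted p under 0.05 and open points for the rest. On the left 6 points are filled in WT and 5 in V338Y mice, and on the right 0 are filled.

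Ordered by CPM per kilobase of the longest coding transcript, Mstn ranked first in all 4 groups, at 45.7 ± 7.58 in WT and 59.2 ± 5.41 in V338Y mice of 3 mo and at 26.1 ± 15.3 and 19.7 ± 8.31 in those of 19 mo (SD). Fstl1 came next, at 18.9 ± 3.30, 24 ± 0.599, 18.1 ± 4.37 and 19.6 ± 5.57 in the same order. The ranges of Mstn and Fstl1 did not overlap at 3 mo and overlapped in both groups of 19 mo. Tgfb3 followed Fstl1 in every group, and Fstl3 was last at 0.351 to 0.649. Gdf11 and Tgfbr2 came after Tgfb3 at 3 mo, and their ranges overlapped there in both genotypes.

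Genotype moved no member past the threshold at either age. At 3 mo 0 of 9 members tested were called by edgeR's quasi-likelihood test, beside 0.075% of all genes, and Fstl3 had too few counts to be tested. Of these, 4 had an unadjusted p under 0.05, all higher in V338Y mice, beside 9.7% of all genes at that threshold. These were Mstn (0.37 ± 0.12), Fst (0.56 ± 0.19), Fstl1 (0.34 ± 0.11) and Tgfb3 (0.22 ± 0.08), on the log2 scale, with edgeR adjusted p of 0.405 to 0.441. Fstl1 and Tgfb3 were the 2 members whose genotypes did not overlap at 3 mo, both higher in V338Y mice, beside 4.71% of all genes (2.68% higher). The sum of 6 fibroblast genes ran from 938 to 1088 CPM in V338Y mice of 3 mo and from 487 to 1019 CPM in WT mice of 3 mo. That of the 6 muscle fiber genes ran from 119764 to 139017 CPM and from 117839 to 126043 CPM in the same order. The part of either sum in these values was not tested.

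At 19 mo 0 of 10 members were called between genotypes, beside 0.0434% of all genes. There were 2 with an unadjusted p under 0.05, beside 8.93% of all genes. Tgfb1 was 0.60 ± 0.21 higher in V338Y mice on the log2 scale (unadjusted p 0.0196, edgeR adjusted p 0.537), with no overlap between genotypes, beside 9.38% of all genes that did not overlap (4.84% higher). Leaving out each mouse in turn gave 0.44 to 0.74 for Tgfb1. The lowest was without WT mouse 2 (0.44 ± 0.21, edgeR adjusted p 0.871), where 0 members had an unadjusted p under 0.05. Tgfb3 stood at -0.28 ± 0.11 (unadjusted p 0.0319, edgeR adjusted p 0.541). The macrophage and leukocyte genes (Ptprc, Adgre1, Cd68, Csf1r, C1qa, Lyz2) also differed in range, with a sum of 271 to 300 CPM in V338Y mice and 199 to 237 CPM in WT mice of 19 mo. Of these 6 genes 0 were called between genotypes, and their part in the Tgfb1 values was not tested.

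Gdf11 had the largest difference of the members between genotypes at 19 mo, -0.99 ± 0.50 on the log2 scale, with an edgeR adjusted p of 0.583. In the pairs of mice that share a number, 2, 4 and 5, Gdf11 was 10.8 against 44.4, 19.7 against 29.5 and 5.29 against 13.8 CPM, lower in the V338Y mouse each time. With the mouse number as a block, a pairing not shown to hold, the difference was -1.29 ± 0.25 and the edgeR adjusted p 0.0683, not called. The value without the block was -0.57 without WT mouse 2, and -0.28 without WT mouse 2 and V338Y mouse 5. In that last fit Fst (0.69), Mstn (0.44), Tgfb1 (0.38) and Fstl3 (-0.31) were larger in size. The same block gave 110 genes called between genotypes at 19 mo in place of 6, and still 0 members. Mstn stood at -0.39 ± 0.44 (edgeR adjusted p 0.810) and at 0.19 without WT mouse 2, so its direction rests on 1 mouse. For the interaction of age and genotype 0 of 10 members were called, beside 0% of all genes, and Tgfb3 was the only member with an unadjusted p under 0.05, beside 9.63% of all genes.

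Of 79 other genes of the pathway, in 5 lists of ligands, receptors, extracellular regulators, Smads and targets, 70 were tested with age in WT and 72 in V338Y mice. In WT 26 were called higher and 6 lower, and in V338Y mice 32 higher and 9 lower, to be read beside the shares of all genes given above. The total of 32 in WT was 21 without WT mouse 4 of 19 mo, and that of 41 in V338Y mice was 26 without V338Y mouse 3 of 3 mo. Called in the same direction in both genotypes were 22 higher and 5 lower of 70 genes, beside 14.4% and 14.5% of all genes tested in both.

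Among the ligands, 3 of 9 tested were higher with age in WT, beside 18.3% of all genes. In V338Y mice 5 of 10 were higher and 1 lower, beside 24.4% and 22.5% of all genes. Bmp2 rose in both genotypes, by 0.98 ± 0.21 and 0.95 ± 0.26 on the log2 scale. Inhbb, which encodes an activin subunit, rose by 1.23 ± 0.36 in WT and 1.5 ± 0.40 in V338Y mice. Inhba, the other common activin subunit, rose by 1.51 ± 0.31 in V338Y mice, from 0.342 to 0.586 CPM at 3 mo to 1.10 to 1.81 CPM at 19 mo. In WT mice Inhba read 0.453 to 1.2 CPM at 3 mo and 1.22 to 1.8 CPM at 19 mo, without overlap and not called (1.09 ± 0.39, edgeR adjusted p 0.0533). Gdf5, a BMP-type ligand of joints and of denervated muscle, read at most 0.228 CPM in V338Y mice of 3 mo and 1.90, 0.335, 3.09 and 4.39 CPM in V338Y mice 2, 3, 4 and 5 of 19 mo (edgeR adjusted p 0.00383). In WT mice of 19 mo Gdf5 read 0.0621, 0.436 and 0.569 CPM.

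Among the 12 receptors, 4 were higher and 1 lower in WT, beside 18.3% and 17.8% of all genes. In V338Y mice 4 were higher and 3 lower, beside 24.4% and 22.5%. The endothelial receptors Eng and Acvrl1 rose in both genotypes, Eng by 1.43 ± 0.21 and 1.49 ± 0.21 and Acvrl1 by 0.56 ± 0.11 and 0.60 ± 0.09. Acvr1, a type I receptor for BMPs and activins, rose by 1.32 ± 0.14 and 1.04 ± 0.16. Bmpr1a, the BMP type I receptor of many tissues, fell by 0.30 ± 0.09 and by 0.45 ± 0.15. The sum of 5 endothelial genes (Pecam1, Cdh5, Kdr, Tek, Vwf) was 153 to 196 CPM in the mice of 3 mo and 239 to 378 CPM in those of 19 mo. Of these, 3 of 5 were called higher in WT and 4 of 5 in V338Y mice, beside 18.3% and 24.4% of all genes. The part of this rise in the receptor values was not tested.

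**Figure D5:**
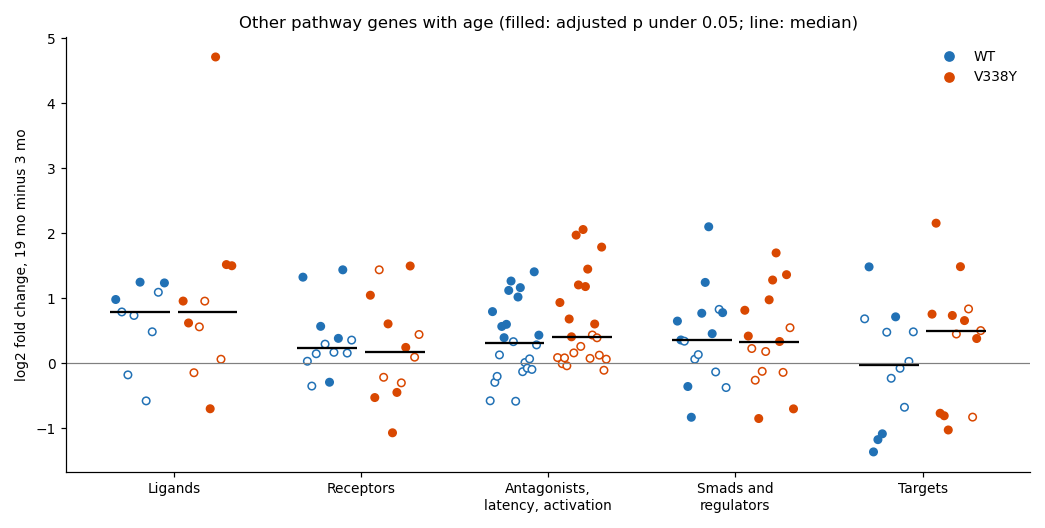
Log2 fold change with age (19 mo minus 3 mo) of the other pathway genes tested in WT and V338Y mice, by list, with 1 point per gene, filled for an adjusted p under 0.05, and a line at the median of each list. Gdf5 in V338Y mice is the highest point at 4.71, and the collagens are among the lowest target genes in both genotypes.

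Antagonists and proteins of ligand latency and activation were called higher in 10 of 22 in each genotype, and lower in 0. Of all genes, 18.3% were called higher in WT and 24.4% in V338Y mice, and 17.8% and 22.5% lower. Ltbp3 and Ltbp4, which hold latent TGF-beta in the matrix, rose by 1.02 ± 0.14 and 1.16 ± 0.18 in WT and by 1.18 ± 0.10 and 1.45 ± 0.13 in V338Y mice. Lrrc32, which anchors latent TGF-beta at the cell surface, rose by 1.26 ± 0.20 in WT and by 1.2 ± 0.19 in V338Y mice. The activators Thbs1 and Itgb8 rose by 1.40 ± 0.26 and 1.12 ± 0.21 in WT and by 1.78 ± 0.27 and 1.97 ± 0.41 in V338Y mice.

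Of 15 Smads and Smad regulators, 7 were higher and 2 lower in each genotype. Of all genes, 18.3% were higher and 17.8% lower in WT, and 24.4% and 22.5% in V338Y mice. The inhibitory Smad7 rose by 1.24 ± 0.23 in WT and 1.28 ± 0.23 in V338Y mice, and Ski, a repressor of Smad-driven transcription, by 0.65 ± 0.10 and 0.81 ± 0.09. Smad3, which carries the TGF-beta and myostatin signal, fell by 0.83 ± 0.19 and by 0.85 ± 0.19. Of the targets, 2 were higher and 3 lower of 12 in WT, where 36.2% of all genes were called in either direction. In V338Y mice 6 were higher and 3 lower of 13, where 46.9% of all genes were called. Cdkn1a, a cell-cycle inhibitor with many other inputs, rose by 1.48 ± 0.33 and 2.15 ± 0.38. The fibrillar collagen genes Col1a1, Col1a2 and Col3a1 fell by 1.37 ± 0.26, 1.18 ± 0.21 and 1.09 ± 0.28 in WT and by 0.77 ± 0.25, 0.81 ± 0.25 and 1.03 ± 0.33 in V338Y mice. The fibroblast sum, which includes Col1a1 and Col3a1, was 487 to 1088 CPM at 3 mo and 366 to 943 CPM at 19 mo. Of its other 4 genes Pdgfra rose in WT (0.46 ± 0.11) and was not called in V338Y mice (0.30 ± 0.14, edgeR adjusted p 0.0973), and Lum, Dpt and Pi16 were called in neither, with log2 fold changes of -0.03 to 0.29.

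Between genotypes 0 pathway genes were called by edgeR's quasi-likelihood test, of 67 tested at 3 mo, where 3 had an unadjusted p under 0.05 beside 9.7% of all genes, and of 72 at 19 mo, where 7 had one beside 8.93% of all genes. With the mouse number as a block, a pairing not shown to hold, 3 were called at 19 mo, all higher in V338Y mice. These are named after their values were seen. They were Ltbp2, a matrix protein of the latent TGF-beta binding family (2.62 ± 0.35, edgeR adjusted p 0.0268), Postn, a matricellular target (2.32 ± 0.26, edgeR adjusted p 0.0165), and Gdf5 (3.20 ± 0.42, edgeR adjusted p 0.0268). Ltbp2 read 0.621, 0.873 and 0.975 CPM in WT mice 2, 4 and 5, and 2.90, 1.67, 9.26 and 4.0 CPM in V338Y mice 2, 3, 4 and 5. Postn read 4.47, 9.24 and 9.75 CPM in WT and 31.2, 7.03, 59.5 and 26.1 CPM in V338Y mice. In each of the 3 genes V338Y mouse 3 was the lowest of its group. It shares its number with no WT mouse of 19 mo and does not inform the blocked fit.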

How the data were processed

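RNA of quadriceps muscle was sequenced as single-end reads with a stranded kit, and 1 library per mouse was used. The authors quantified genes with RSEM, which splits ambiguous reads in proportion to estimated abundance, and deposited the expected counts as whole numbers, unscaled for depth or length. The strand setting was not given in the sources used here. The submitters' processing notes name CASAVA 1.8, bcl2fastq 1.8.4, STAR 2.4.2a and GRCm38, while the methods name an earlier mouse build, so counts were joined to an annotation of GRCm38 by gene identifier (37693 of 39179 genes) and positions are from that annotation. The 4 groups came from the labels.

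Counts were compared in R 4.3.3 with edgeR 4.0.16 (quasi-likelihood test, TMM library sizes), keeping a gene if 50% or more of the mice in 1 of the groups compared had 10 counts or more. Each comparison was fitted on its own groups, the interaction on all 15 mice. P-values were adjusted by Benjamini-Hochberg over all genes tested, 13333 to 14128 per comparison, and called at an adjusted p under 0.05. SE were derived from the fold change and its F statistic. Each age comparison shares a group with each genotype comparison. Between mice of a group the counts differed by 5.47 to 101 in chi-square per degree of freedom, and 0 of 105 pairs of files were identical. The code was tested on simulated data. Likeness to Mstn or Tgfb1 used log2(CPM + 0.5) and genes with a mean of at least 1 CPM.

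Mouse numbers recur between groups. The methods do not state that mice of the same number are related. At 19 mo the 3 same-numbered pairs had r of 0.131 to 0.401, every pair over 0.1. The 9 other pairs had -0.408 to 0.469. Only V338Y mouse 3 with WT mouse 2 was positive among them, and the next highest was -0.022. The same-numbered values lie within that range only through this positive pair. With 3 same-numbered pairs, the values do not settle whether the numbers pair mice. The number as a block is therefore only an alternative fit, and its results depend on a pairing not shown to hold. In the other comparisons not every same-numbered pair was over 0.1. Alternatives were RLE and upper-quartile scaling, no filter and filterByExpr, DESeq2 1.42.0, edgeR's likelihood ratio test, leaving out the 10 most counted genes, the number as a block, 1 fit of all mice, and leaving out each mouse in turn. A fit without 2 mice of 19 mo was chosen after seeing the data.

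The members, the 5 pathway lists and the 9 marker lists were chosen with earlier results of these data known. Named pathway genes are among the 5 of smallest adjusted p of each list, except where stated. Promoter sequences are from RefSeq. A gene and a sequence that these rules would have named are not reported here.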

Additional observations from a re-analysis of the deposited data

Results flagged for a closer look

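In groups of 4 mice, 57 sets of values were searched for a mouse far from the other 3, by Dixon's ratio of its gap to the range, and 5 stood apart. Chance alone gives about 1 in 20. Among the members, Fstl3 in WT mouse 3 of 3 mo read 1.28 CPM, the highest of its group, and Acvr2b in V338Y mouse 4 of 3 mo read 5.48 CPM, above the other 3 mice. Among the marker sums, V338Y mouse 1 of 3 mo was highest for the fibroblast genes, at 1088 CPM, and for the macrophage and leukocyte genes, at 293 CPM. V338Y mouse 5 of 19 mo held 547 CPM of neutrophil genes, and was the lowest of its group for Mstn, Gdf11, Fst, Fstl1, Acvr2b, Tgfbr2 and Tgfb2 and the highest for Tgfb1 and Fstl3. Whether these values are linked was not tested.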

How the results depend on the processing

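Of 893 member values under alternatives, 845 kept their direction and side of the threshold, 5 lost a call, 8 gained one and 35 changed sign. With a replicate block by mouse number, calls with age in WT were 2229 genes in place of 4940, 3 members in place of 6 and 16 pathway genes in place of 32. The members lost were Tgfb1 (0.93, edgeR adjusted p 0.130), Tgfbr2 (0.39, 0.0952) and Acvr2b (0.72, 0.112); that fit rests on 2 pairs. Between genotypes at 3 mo, 10 genes became 33 with no filter, 66 with DESeq2 and 83 with the likelihood ratio test. At 19 mo, 6 became 14, 62 and 72, 110 with the block and 10 without WT mouse 2 and V338Y mouse 5, and 0 pathway genes became 1 (Ltbp2) with DESeq2 and with the likelihood ratio test, and 3 with the block. For the interaction, 0 genes became 5, 26 and 36, and 28 with the block. The block changed no other call of a member. Mstn with age in WT was called with no filter (-0.81, edgeR adjusted p 0.0259) and by the likelihood ratio test (-0.79, 0.0419), and Acvr2b with age in V338Y mice in 1 fit of all mice (0.53, 0.0377). The causes were not tested.

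Leaving out each mouse in turn gave 3431 to 4837 genes, 6 to 7 members and 21 to 32 pathway genes with age in WT, the fewest pathway genes without WT mouse 4 of 19 mo. With age in V338Y mice it gave 5182 to 6448 genes, 4 to 6 members and 26 to 40 pathway genes, the fewest without mouse 3 of 3 mo. Genotype gave 3 to 14 genes at 3 mo (3 without V338Y mouse 3, 4 without mouse 1, and 6 without mouse 2, mouse 4 or WT mouse 4) and 2 to 7 at 19 mo (2 without WT mouse 4, and 3 without WT mouse 5 or V338Y mouse 2), and the interaction 0 to 0. Values that changed sign ran from -0.26 to 0.0782 for Fstl1 and -0.0348 to 0.72 for Gdf11 with age in WT, and from -0.0364 to 0.0695 for Tgfb3 with age in V338Y mice. Between genotypes at 3 mo they ran from -0.11 to 0.22 for Tgfb1, -0.14 to 0.10 for Gdf11 and -0.12 to 0.0474 for Tgfb2. At 19 mo they ran from -0.0932 to 0.40 for Fstl3, -0.16 to 0.54 for Fst, -0.0279 to 0.34 for Fstl1 and -0.65 to 0.19 for Mstn. For the interaction they ran from -0.35 to 0.40 for Fstl3 and -0.30 to 0.00546 for Acvr2b. Without WT mouse 2 and V338Y mouse 5 of 19 mo, genotype at 19 mo gave -0.31 for Fstl3, 0.44 for Mstn and 0.0447 for Tgfb2, and the interaction gave -0.36 for Fstl3, 0.11 for Fst, 0.0543 for Mstn, 0.0541 for Tgfb2 and 0.0892 for Acvr2b. The block gave -0.0241 for the interaction of Fstl3. Tgfb1 rested on 14 to 94 counts per mouse and Fstl3 on 3 to 28.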

Other observations

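Among the genes whose profile over the 15 mice was most like that of Tgfb1 were Myh9, the heavy chain of non-muscle myosin, and Msn, which links membrane proteins to actin. Their root mean square differences in centred log2 CPM were 0.19 and 0.19, against 0.65 for the deviations of Tgfb1 itself. Myh9 averaged 86.8 CPM in WT and 88.1 CPM in V338Y mice of 3 mo, and 160 and 198 CPM in those of 19 mo. Msn averaged 25.5, 24.1, 41.7 and 53.3 CPM in the same order.

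Of the other marker lists, 2 of 4 Schwann cell genes were called higher with age in WT and 4 of 4 in V338Y mice by edgeR's quasi-likelihood test, with sums of 16.7 to 25.3 CPM at 3 mo and 27.6 to 72.6 CPM at 19 mo. Beside these marker counts, 18.3% of all genes were called higher in WT and 24.4% in V338Y mice, and 17.8% and 22.5% lower. Macrophage and leukocyte genes were called higher in 3 of 6 in each genotype. Neutrophil genes were called higher in 5 of 5 in V338Y mice and in 0 of the 2 tested in WT, and platelet genes in 2 of 3 and 0 of 2, in both lists with V338Y mouse 5 of 19 mo highest. Of the satellite cell genes, Myod1 rose in both genotypes, Vcam1 rose and Myf5 fell in V338Y mice. Among the adipocyte genes Adipoq fell in WT and Plin1 rose in V338Y mice.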
